A study of Mus musculus with 16 samples.

Results

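CD8+ T cells with transcripts of virtual memory cells were taken from the spleens of naive mice. A cell was included when it held at least 1 UMI (unique molecular identifier, 1 captured RNA molecule) of Il2rb and at least 1 of Ccl5, Eomes or Cd44. It also had to hold at least 1 of Cd8a or Cd8b1, and no UMI of Cd4, Cd79a or Lyz2. The rule does not tell virtual memory cells from memory cells raised by antigen. The gate held 626 of the 4681 cells in the naive-spleen CD8 matrix (13.4%), against 72639 cells in the 9 CD8 matrices of the series. The 5 libraries contributed 144, 92, 121, 127 and 142 gate cells. They were set against 2572 CD8+ cells of the same libraries with no Il2rb, Ccl5 or Eomes UMI and none of the 3 excluding transcripts (687, 416, 420, 509 and 540 cells), here called comparison cells. The other 1050 CD8+ cells without Cd4, Cd79a or Lyz2 belonged to neither group.

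The naive spleens came from wild-type C57BL/6J mice that had no transplant. The recipient spleens used beside them came from wild-type C57BL/6J mice carrying an accepted DBA/2J kidney for 1 week (3 libraries) or 3 weeks (5 libraries), and graft cells came from accepted DBA/2J kidneys at 3 weeks (5 libraries). Cells labelled 24 weeks of acceptance, and cells of the rejecting pair (a C57BL/6J kidney in a DBA/2J recipient, 1 week), are given only as levels or shares. Viable CD45+ leukocytes were sorted, after mechanical dissociation of spleens with red cell lysis or collagenase digestion of kidneys, and run on a droplet 3′ kit. The study's methods treat every mouse as its own sample, and state replicate numbers for the accepted recipients but not for the naive mice, whose library tags were taken as replicates here, so p-values measure the spread between libraries. The age of the mice is not given in the sources used here. In recipients, donor and recipient leukocytes were not told apart.

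Virtual memory cells are CD8+ T cells that acquire a memory phenotype without having met a foreign antigen, in response to self-peptide recognition and to IL-15 or IL-4. CD122, the IL-2 and IL-15 receptor beta chain made from Il2rb, lets them respond to IL-15 and is kept high by the T-box factors Eomes and T-bet. They are known for high CD44 and Ly6C, for CXCR3 and NKG2D, for rapid cytokine release after IL-12 and IL-18, and for low CD49d, the alpha 4 integrin chain made from Itga4, which separates them from memory cells raised by antigen.

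The 9 genes of the gate are a description of how cells were chosen and carry no test. In CPM (the UMIs of a gene per 1000000 UMIs of the pooled cells of a library), Il2rb stood at 441, 321, 333, 274 and 436 in the gate cells of the 5 libraries. Eomes stood at 125 to 166 CPM and Cd44 at 66.3 to 94.5 CPM, while Cd44, which the comparison rule allowed, was 5.53 to 9.33 CPM in comparison cells. Of the gate cells, 291 held a single Il2rb UMI, 162 held 2 and 173 held 3 or more. Ccl5, a chemokine of memory and effector T cells, was present in 473 (75.6%), Eomes in 307 (49.0%) and Cd44 in 220 (35.1%), and 70 cells held all 3. Just outside the gate lay 551 CD8+ cells with Il2rb and none of the other 3 transcripts, 561 with 1 of those but no Il2rb, 42 cells set aside for a Cd4, Cd79a or Lyz2 UMI and 31 without a Cd8a or Cd8b1 UMI.

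Gate cells carried the transcripts of CD8+ alpha beta T cells. A Cd3d, Cd3e or Cd3g UMI was found in all but 1 of the 626 cells, as was a T cell receptor constant gene, and Cd8a with Cd8b1 in 488 (78.0%). The same Il2rb rule was met by 0.497% of 26959 naive-spleen B cells (median 2736 UMIs per cell), 14.7% of the 4248 CD8+ cells without excluding transcripts (4303.5 UMIs) and 85.1% of 867 NK cells (2548 UMIs). The 7 NK-defining markers summed to 0 to 21.4 CPM in gate cells and 2.52 to 6.84 CPM in comparison cells, with Cma1 at 0 in the gate, and the innate-like T cell markers to 10.5 to 40.0 against 2.20 to 9.47 CPM. A UMI of either list was held by 63 gate cells (10.1%) and by 78 comparison cells (3.03%), and values without such cells are given where a call was lost. Gate cells were also deeper, with a median of 5549 UMIs and 1741 genes against 4019 UMIs and 1397.5 genes. A gate that asks for UMIs favours deep cells, so comparisons of gene levels were repeated with every cell thinned, at random, to 1000 UMIs. The later fits of a difference in the gate's effect between spleens were not. Thinned fits tested fewer genes, 3235 against 7732 in naive spleen. A gene named without a thinned value may have been too low to be tested after thinning.

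The gate's share of CD8+ cells without excluding transcripts was 13.6, 13.5, 16.5, 14.8 and 15.6% in the 5 libraries, and 1.30 to 3.87% with cells thinned. Of all CD45+ cells, the gate cells of the CD8 matrix were 1.27, 1.14, 1.34, 1.40 and 1.48%. In the naive-spleen CD45 matrix 898 of 47060 cells met the rule, and the 272 of these outside the CD8 matrix, 261 of them with a Cd3 UMI and 52 with an Ncr1 or Klrb1c UMI, were not used. By library, the gate pools held 572738 to 849932 UMIs and the comparison pools 1822287 to 2487671, and median UMIs of gate cells were 4693 to 6719. Red cell and platelet markers summed to 1.18 to 260 CPM in the gate, with a median of 5.24 CPM. Only 1 cell barcode occurred in more than 1 library. The doublet caller marked 1 gate cell, 2 comparison cells and 3.00% of 47060 CD45+ cells.

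The T cell receptor V segments of the gate were diverse. An alpha chain segment was read in 154 gate cells, over 51 of the 69 Trav segments listed, and 444 comparison cells covered 64. The effective number of segments, the exponential of the Shannon entropy, was 36.2 for Trav and 16.8 for Trbv in the gate and 38.3 and 17.4 in comparison cells. The most used Trav segment was found in 10.4% of the gate cells with a Trav segment and in 13.5% of such comparison cells. Fewer cells see fewer segments, and these values were not tested.

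Counts of gate and comparison cells of the naive spleen, summed per library, entered edgeR's quasi-likelihood test, blocked by library. It asks whether the average difference within the 5 libraries departs from 0. It does not ask whether that difference is alike in each. Log2 fold changes are gate minus comparison cells. Each carries an approximate standard error (SE), the absolute log2 fold change divided by the square root of the test's F statistic. It can be too small for genes near 0 in comparison cells. P-values are adjusted by Benjamini-Hochberg over 7732 genes, with a call at adjusted p under 0.05. Of these genes 470 were higher (6.08%) and 485 lower (6.27%) in the gate, or 6.6% and 5.25% with TMM scaling factors, which allow for genes that take up a large part of a library. All 10 virtual memory features that the gate did not use were called higher, with a median log2 fold change of 3.70 where that of all genes tested was -0.02. The call on Klrd1 was lost after thinning. Members near 0 in comparison cells, such as Klrc1, pass the filter on low counts only through the gate. Neither the count nor the median therefore bears on the direction of the list. The list was drawn up knowing earlier results of these data and is not independent evidence of its direction.

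Ly6c2, which encodes the memory marker Ly6C, stood at 908, 908, 885, 915 and 793 CPM in gate cells and at 165, 112, 164, 115 and 127 CPM in comparison cells. Every gate library lay far above every comparison library, a log2 fold change of 2.69 ± 0.06 (SE, n = 5 libraries, adjusted p = 2.91e-78, edgeR). Cxcr3, the receptor for interferon-induced chemokines, read 69.6, 36.7, 66.3, 60.0 and 79.5 CPM against 2.63 to 8.05 CPM (3.72 ± 0.19, adjusted p = 7.39e-37). Library 2 was the lowest, still more than any comparison library. Tbx21, encoding T-bet, read 22.8, 24.4, 25.5, 20 and 33.0 CPM against 0.412 to 1.65 CPM (4.89 ± 0.37, adjusted p = 8.38e-23), again with no overlap. Bcl2, the survival factor sustained by IL-15, read 601, 360, 459, 406 and 415 CPM against 296, 253, 293, 261 and 236 CPM, a smaller difference of 0.74 ± 0.06 (adjusted p = 4.84e-23) in the same direction in every library.

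**Figure D1:**
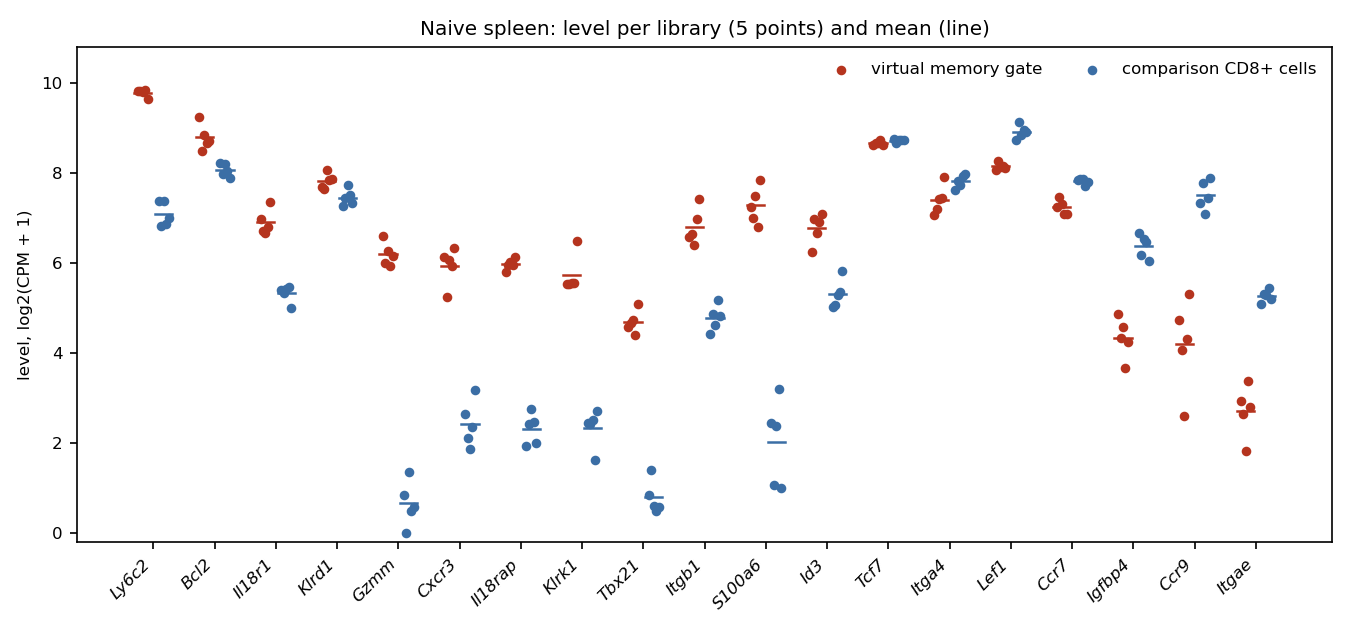
Level of selected genes in naive spleen as log2(CPM + 1), for gate cells (red) and comparison cells (blue), with 1 point per library (n = 5) and a line at the mean. Ly6c2, Gzmm, Cxcr3, Il18rap, Klrk1, Tbx21 and S100a6 separate fully upwards, Lef1, Ccr7, Igfbp4, Ccr9 and Itgae fully downwards, and Tcf7 overlaps.

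Granzyme M, a serine protease of innate-like lymphocytes, was among the most contrasted genes. Gzmm read 96.4, 62.9, 76.5, 60.0 and 70.5 CPM in the gate and 0 to 1.58 CPM in comparison cells (6.63 ± 0.26, adjusted p = 6.11e-48). Xcl1, the chemokine that draws cross-presenting dendritic cells, read 38.8, 17.5, 26.8, 24.7 and 31.5 CPM against 0.503 to 2.01 CPM (4.67 ± 0.34, adjusted p = 2.23e-24). In both, every gate library was above every comparison library. Their RefSeq promoters are shown because Eomes is among the alternative transcripts of the gate (held by 307 of 626 gate cells) and Tbx21 was higher in it. Each promoter holds a copy of the T-box binding motif GGTGTGA, which begins 205 bases before the annotated start. The capitals mark the motif, and its part in the level of either gene was not tested. The stretches are on GRCm38.p6, chr10:79693592-79693688 on the plus strand for Gzmm and chr1:164935659-164935755 on the minus strand for Xcl1, upstream of the gene and read 5′ to 3′ along it.
Gzmm: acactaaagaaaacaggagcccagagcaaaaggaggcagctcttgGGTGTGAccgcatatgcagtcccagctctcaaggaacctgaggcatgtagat
Xcl1: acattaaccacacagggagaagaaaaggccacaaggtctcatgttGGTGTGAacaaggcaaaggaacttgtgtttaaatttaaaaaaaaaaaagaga
Searched on both strands (reverse TCACACC) over the 250 bases before the start, the motif was in 3.84% of the 27025 promoters, 3.19% of 6214 promoters of tested genes, 5.90% of 356 promoters of genes higher in the gate, 10% of the 100 of these with a log2 fold change above 1, and 3.4% of 382 promoters of genes lower. These shares are a description and not a count of binding sites.

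Of the 10 granule and killing genes, 6 passed the filter on low counts and 4 were called higher: Gzmm, Prf1 (perforin; 0.76 ± 0.12, adjusted p = 4.44e-08), Nkg7, which supports granule release, and Ctsw, a granule-associated cathepsin. Nkg7 read 682 ± 49.0 CPM in the gate and 381 ± 41.7 CPM in comparison cells (SD, n = 5 libraries; 0.83 ± 0.05), so that comparison cells carried it too. Granzymes A and B were low in most libraries and did not pass the filter. Gzma read 1.34, 78.6, 29.3, 7.06 and 12 CPM, with library 2 far above the others, against 0.549 to 2.10 CPM, and Gzmb 2.68 to 17.8 CPM against 0 to 0.549 CPM. Among the cytokines and chemokines made by T cells, 2 of the 3 tested were higher, Xcl1 and Ccl4, the latter at 14 to 20.1 CPM against 0 to 1.51 CPM.

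Of 14 NK lectin receptors listed, 5 passed the filter on low counts, and these were higher in the gate. A gene near 0 in comparison cells passes that filter only through the gate, so such counts of tested members, here and for the other lists, do not bear on a list's direction. Klrk1, encoding the activating receptor NKG2D, read 45.5, 45.4, 45.9, 45.9 and 88.5 CPM against 2.06 to 5.53 CPM (3.67 ± 0.21, adjusted p = 1.91e-33), and library 5 stood above the other 4. Klrd1, encoding CD94, was carried by both populations, at 205, 199, 269, 228 and 231 CPM in the gate and 154, 173, 211, 181 and 160 CPM in comparison cells. The ranges overlapped while each library differed the same way (0.37 ± 0.07, adjusted p = 9.28e-06), and after thinning the difference was 0.43 with adjusted p = 0.0770. The NKG2 partners of CD94 had few or no UMIs in comparison cells; NK cells of the same spleens held Klrc1 in 32.5% and Klrc2 in 80.9%. Klrc1 (NKG2A) had 58 UMIs in the gate and none in comparison cells, which is at least 56.8-fold higher against a floor of 3 UMIs over the group. Klrc2 (NKG2C) had 103 UMIs against 2, a ratio of CPM of 151 with a 95% counting interval of 40.8 to 1265. Klra7, of the Ly49 family, whose members are near-identical copies that 3′ reads may assign wrongly, had 50 UMIs against 2, a ratio of 73.4 (19.3 to 622.6). Intervals cover counting error only.

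Receptors for the cytokines that act on virtual memory cells differed in part. Of 12 cytokine receptor genes, 5 were higher: Il18r1 and Il18rap, the 2 chains of the IL-18 receptor, Il10ra, Ifngr1 and Il7r. Il18rap read 54.9 to 69.0 CPM against 2.81 to 5.79 CPM (3.90 ± 0.20, adjusted p = 1.90e-37), and Il18r1 read 126, 103, 101, 111 and 162 CPM against 31.2 to 43.2 CPM (1.60 ± 0.11, adjusted p = 1.03e-25). Both chains were thus higher in every library with no overlap. Ifngr1 read 191, 243, 181, 162 and 217 CPM against 84.4 to 125 CPM (1.03 ± 0.08). Il7r, the IL-7 receptor chain shared by naive and memory cells, read 880, 650, 848, 708 and 751 CPM against 641 to 765 CPM, and its call (0.13 ± 0.04, adjusted p = 0.0128) did not hold without library 1 (0.11, adjusted p = 0.130) or library 3 (0.13, adjusted p = 0.0510), with DESeq2 (0.15, adjusted p = 0.0669), without the block (0.13, adjusted p = 0.339), after thinning (0.08, adjusted p = 0.679), or without the cells holding an NK or innate-like T cell marker (0.10, adjusted p = 0.123).

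**Figure D2:**
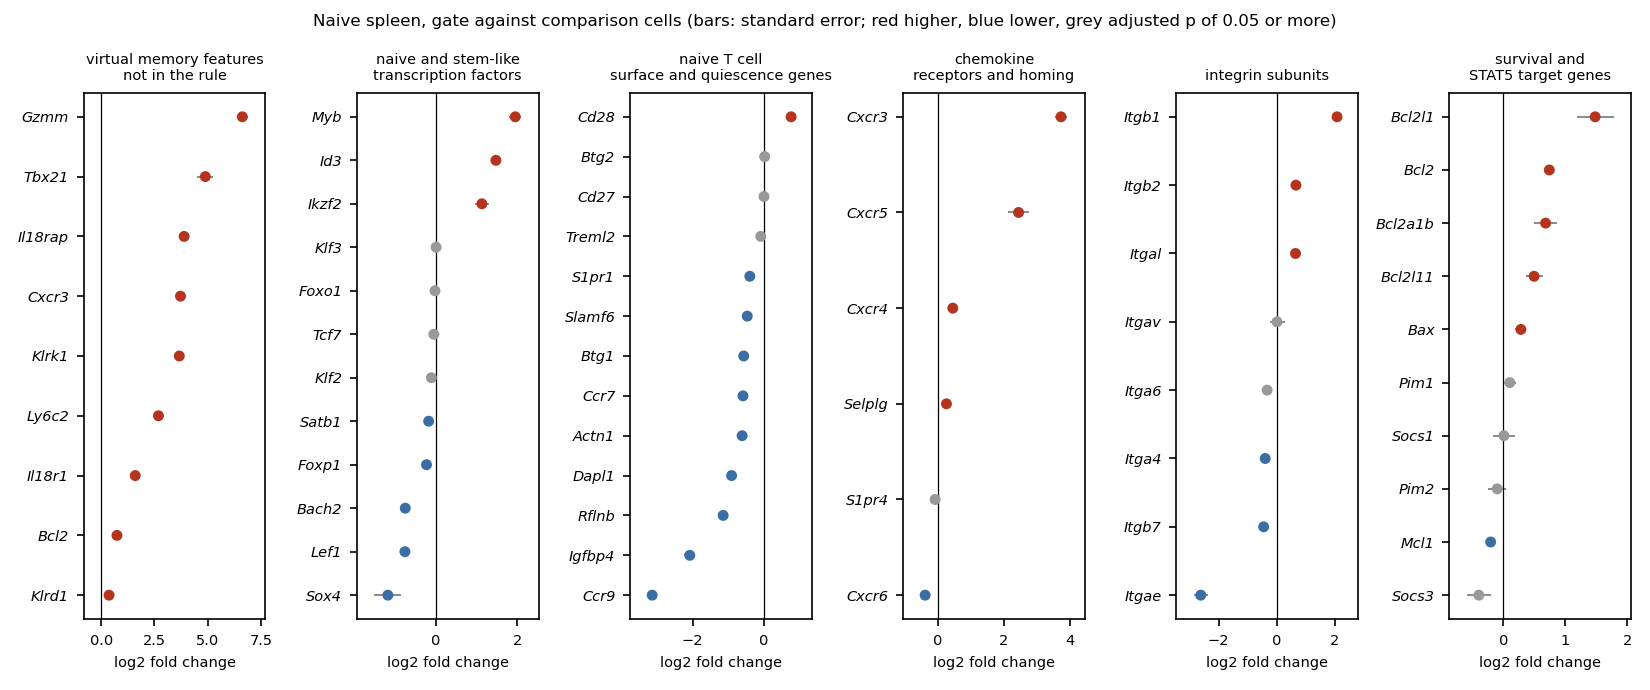
Log2 fold change of gate against comparison cells in naive spleen for the tested members of 6 gene lists, with SE bars (n = 5 libraries per population); red marks a gene called higher, blue 1 called lower and grey an adjusted p of 0.05 or more. Klrc1 and Ccr2, at 0 and 2 UMIs in comparison cells, are not drawn. Virtual memory features lie to the right of 0, while surface genes of naive cells lie mostly to the left, with Cd28 to the right.

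Among transcription factors, part of the effector genes were higher in the gate, while naive and stem-like genes moved both ways. Of 8 effector and memory factors tested, Tbx21, Zeb2, Runx2 and Stat4 were higher. Zeb2, which acts with T-bet in effector cells, read 17.4, 36.7, 16.6, 12.9 and 19.5 CPM against 0.402 to 1.65 CPM (4.27 ± 0.39, adjusted p = 1.15e-17), and Runx2 read 46.9, 27.9, 34.4, 27.1 and 46.5 CPM against 0.503 to 4.21 CPM (4.28 ± 0.29, adjusted p = 7.58e-27). Neither overlapped between populations.

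Of the 12 naive and stem-like factors, 3 were higher and 5 lower. Id3, a marker of memory precursors, read 75.0, 126, 101, 120 and 135 CPM against 31.4 to 55.9 CPM (1.48 ± 0.11, adjusted p = 1.16e-23), with library 1 the lowest of the gate. Myb, a factor of stem-like memory cells, read 25.4, 73.3, 94.3, 111 and 105 CPM against 17.9 to 26.8 CPM (1.96 ± 0.14). Library 1 lay within the range of the comparison cells and the other 4 did not. Ikzf2, encoding Helios, read 16.1, 36.7, 53.5, 43.5 and 30.0 CPM against 10.9 to 24.7 CPM (1.13 ± 0.18, adjusted p = 1.48e-07). Library 1 was again the lowest and overlapped comparison cells.

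Lef1, a Wnt-pathway factor of naive T cells, was lower in the gate, at 265, 309, 282, 286 and 276 CPM against 426, 557, 455, 498 and 483 CPM (-0.77 ± 0.05, adjusted p = 2.51e-25), with no overlap. Bach2, which restrains effector genes, was also lower (-0.76 ± 0.12, adjusted p = 2.18e-07), as were Foxp1, Satb1 and Sox4. The call on Satb1 was lost without library 2 (-0.13, adjusted p = 0.0929), with DESeq2, without the block and after thinning, that on Sox4 without library 5 (-0.83, adjusted p = 0.158), with DESeq2 and without the block, and those on Bach2 and Foxp1 after thinning. Tcf7, encoding the Lef1 relative TCF-1, read 394, 407, 408, 426 and 396 CPM against 430, 405, 422, 423 and 427 CPM. The ranges overlapped and the difference did not pass the test (-0.05 ± 0.05, adjusted p = 0.612).

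Surface genes of naive T cells were partly lower. Of 13, 9 were lower and Cd28, a costimulatory receptor, was higher (0.78 ± 0.09, adjusted p = 2.87e-13). After thinning, the calls on S1pr1 (-0.40, adjusted p = 0.0550), Actn1 (-0.38, adjusted p = 0.128) and Slamf6 (-0.55, adjusted p = 0.0630) were lost. Ccr9, a gut homing receptor carried by recent thymic emigrants, differed most, at 25.4, 15.7, 5.10, 18.8 and 39.0 CPM in the gate against 160, 218, 136, 172 and 235 CPM in comparison cells (-3.14 ± 0.13, adjusted p = 4.79e-45). Igfbp4, an insulin-like growth factor binding protein, read 28.1, 19.2, 22.9, 11.8 and 18 CPM against 65.4 to 100 CPM (-2.08 ± 0.15, adjusted p = 1.97e-24). Neither gene overlapped between populations.

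Ccr7, the receptor that guides cells to lymph nodes and the T zone, was lower too, at 150, 176, 157, 135 and 135 CPM against 228, 231, 232, 209 and 221 CPM (-0.58 ± 0.07, adjusted p = 5.57e-11), with no overlap.

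Of 7 other chemokine receptor and homing genes tested, besides Ccr7 and Ccr9, the receptors Cxcr3, Cxcr4, Cxcr5 and Ccr2 and the selectin ligand gene Selplg were called higher and Cxcr6 lower, the last not with TMM factors. After thinning, Cxcr4 was in 3.67% of gate and 4.12% of comparison cells. Ccr2, which guides cells to inflamed tissue, had 94 UMIs against 2, a ratio of 138 (37.1 to 1156). Cxcr5, the receptor that leads to B cell follicles, read 14.7, 21.0, 11.5, 23.5 and 24.0 CPM against 2.20 to 4.12 CPM (2.44 ± 0.31). Both separated fully between the populations.

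Integrin genes moved in both directions, with 3 of 8 higher and 3 lower. Itgb1, the beta 1 chain, read 95.1, 99.5, 82.9, 126 and 169 CPM against 20.5, 28.0, 23.7, 35.0 and 27.2 CPM (2.08 ± 0.12, adjusted p = 9.09e-33). Itgae, encoding CD103, read 2.55 to 9.41 CPM against 33.0 to 42.8 CPM (-2.62 ± 0.24, adjusted p = 8.89e-18). Both were without overlap. Itgal and Itgb2, the 2 chains of LFA-1, which binds ICAM-1, were higher by 0.65 ± 0.09 and 0.66 ± 0.09, and Itgb7 was lower by -0.45 ± 0.08. After thinning Itgb2 (0.62, adjusted p = 0.0798) and Itgb7 (-0.36, adjusted p = 0.272) were not called.

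Itga4, the CD49d gene whose low level marks virtual memory cells, read 133, 145, 170, 173 and 238 CPM in the gate and 196, 227, 212, 242 and 250 CPM in comparison cells. It was lower in each library, although the ranges overlapped (-0.40 ± 0.07, adjusted p = 6.26e-06). With every cell thinned to 1000 UMIs, and so weighing alike, the pooled difference was -0.03 (adjusted p = 0.946), at 222 CPM in the gate and 224 CPM in comparison cells. The cells behind these equal totals differed: 92 of 626 gate cells (14.7%) and 502 of 2572 comparison cells (19.5%) held an Itga4 UMI after thinning, but 4.79% and 2.72% held 2 or more, and 11 gate cells (1.76%) against 4 comparison cells (0.156%) held 3 or more. The share with a UMI was lower in the gate in 4 of 5 libraries and the share with 2 or more was higher in 5 of 5. These shares were not tested. The gate did not use Itga4, and whether some of its cells were memory cells raised by antigen was not tested.

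Gate cells grouped by their thinned Itga4 UMIs differed in other genes, given here as a description since the classes were made from the data. The 534 cells without Itga4, the 62 cells with 1 UMI and the 30 cells with 2 or more had median depths of 5637, 4679 and 4004 UMIs. Pooled Klrk1 was 37.9, 96.2 and 320 CPM over these classes, and by library it ran from 18.6 to 47.9 CPM in the first and from 109 to 962 CPM in the last, without overlap. Pooled S100a4 was 17.4, 149 and 461 CPM and Bcl2 was 473, 329 and 245 CPM, but the libraries of the last class ran from 0 to 1399 CPM for S100a4 and from 86.2 to 616 CPM for Bcl2, overlapping the first class. Ly6c2 was 902, 689 and 907 CPM. Pooled Ccl5, a gene of the gate, was 1768, 4093 and 13876 CPM. By library Ccl5 ran from 1438 to 2392 CPM in the first class and from 7733 to 45025 CPM in the last.

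**Figure D3:**
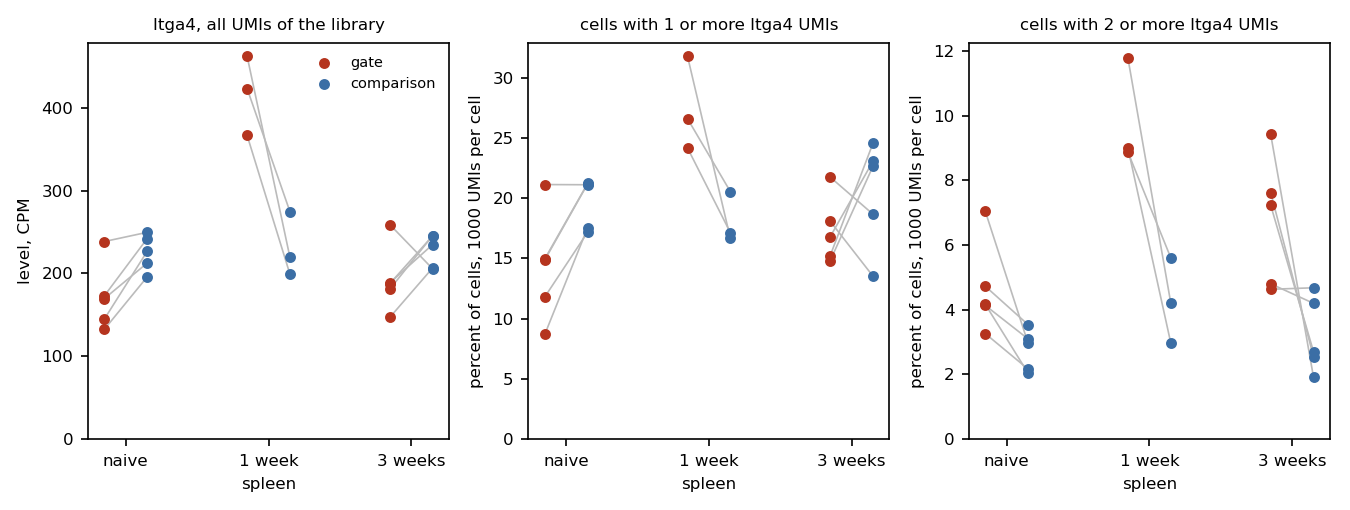
Itga4 in gate (red) and comparison cells (blue) of naive, 1-week and 3-week spleens, with 1 point per library and lines joining the populations of a library: CPM over all UMIs (left), percent of cells with 1 or more UMIs (middle) and with 2 or more (right), the last 2 after thinning each cell to 1000 UMIs. In naive spleen the gate lies below its comparison cells on the left and above them on the right, and at 1 week it lies above them in all 3 panels.

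Of the S100 proteins, annexins and cytoskeletal genes, 10 of 11 tested members were higher. S100a6 read 151, 127, 180, 111 and 228 CPM against 1.01 to 8.23 CPM (5.25 ± 0.17, adjusted p = 4.84e-57). S100a4 read 12.1, 36.7, 44.6, 36.5 and 103 CPM against 0 to 2.88 CPM (5.44 ± 0.31, adjusted p = 1.61e-32), with library 5 highest and library 1 lowest among the gate and neither near the comparison cells. Lgals1, encoding galectin-1, and the scaffold gene Ahnak were higher by 1.70 ± 0.08 and 1.96 ± 0.08. Of the Ly6 family and Plac8, 4 of 5 tested were higher, Ly6a among them (1.00 ± 0.17, adjusted p = 2.20e-06).

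Genes of survival and T cell receptor signalling moved both ways. Bcl2, Bcl2l1 (BCL-XL), Bcl2l11 (the opposing BIM), Bax and Bcl2a1b were higher, 5 of 10 tested, and Mcl1 lower. Bcl2l11 was not called with DESeq2 (0.52, adjusted p = 0.119) or after thinning (0.58, adjusted p = 0.350), and Mcl1 not without library 1 or library 5, with DESeq2, without the block, after thinning or without cells holding an NK or innate-like T cell marker (-0.17, adjusted p = 0.0824). Cd5, which follows the strength of self-peptide recognition, read 130, 154, 172, 132 and 157 CPM against 98.9 to 117 CPM (0.47 ± 0.08), with no overlap. Its call was lost after thinning (0.42, adjusted p = 0.187). Cd6, a related scavenger receptor, rose by 0.58 ± 0.08. Egr1, an immediate early gene of receptor signalling, was lower (-1.30 ± 0.22, adjusted p = 6.56e-07), and Cd69 did not pass the test (0.02, adjusted p = 0.879). Of the 10 genes of the receptor complex, 4 were lower (Cd3e, Cd3g, Cd247 and Trbc1) and Zap70 higher, the call on Cd3e being lost with TMM factors (-0.15, adjusted p = 0.0739) and that on Cd247 after thinning (-0.55, adjusted p = 0.0744). Zap70 lost its call without any 1 library and without the cells holding those markers (0.31, adjusted p = 0.0597).

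Interferon-stimulated genes were lower where they differed, 3 of 11: Isg15, Isg20 and Ifi27l2a. Isg15, a ubiquitin-like protein induced by interferon, read 14.7, 12.2, 11.5, 17.6 and 15 CPM in the gate against 18.1 to 33.3 CPM (-0.84 ± 0.20, adjusted p = 0.00128), with no overlap, but was not called by DESeq2 (-0.80, adjusted p = 0.150). Of the checkpoint genes, Cd160, a receptor of memory and NK cells, was higher at 27.9 to 42.0 CPM against 10.6 to 17 CPM (1.31 ± 0.18), and Tox was not called (-0.16, adjusted p = 0.503). Pdcd1 was found in 4 gate cells (0.639%) and Klrg1 in 6 (0.958%), too few to test. Fgl2, a regulatory gene named by the study, had 3 UMIs in the whole gate. Of immediate early and heat shock genes, Fosb and Hspa8 were higher and Jun and Jund lower, 4 of 9.

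Among genes named by size of change, the largest increases outside these lists were in Plek, a pleckstrin-domain protein of activated leukocytes, at 42.4 to 71.4 CPM against 0 to 1.51 CPM (5.75 ± 0.27), Samd3 at 58.6 to 79.0 against 0 to 3.62 CPM (5.25 ± 0.24), Slamf7, a receptor of cytotoxic lymphocytes, at 44.2 to 50.6 against 0.549 to 2.52 CPM (4.92 ± 0.26), and Ctla2a at 283 to 406 against 8.04 to 29.7 CPM (4.43 ± 0.10). The largest decreases besides Ccr9, Itgae and Igfbp4 were in 1700062C10Rik (-2.38), Rgcc (-2.10), Gm43698 (-1.97), Tmie (-1.84), Ramp1 (-1.82), Actn2 (-1.64) and St8sia1 (-1.58). Rgcc, a cell cycle regulator, read 22.7 to 42.0 CPM in the gate and 119 to 137 CPM in comparison cells.

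The gate was not uniform. Gate cells with a Ccl5 UMI held Klrk1 in 19.9% and Klrc1 in 8.67%, where the other gate cells held them in 3.92% and 0%. Cxcr3 was in 30.4 against 17%, Tbx21 in 13.3 against 6.54% and Ly6c2 in 91.5 against 76.5%. Itga4 was in 36.8 against 48.4% and Ccr7 in 46.5 against 60.1%. The cells with Ccl5 thus held lectin receptors more often and Ccr7 less often, a description without a test because Ccl5 is part of the gate. These shares are of raw UMIs, and depth was not matched between cells with and without Ccl5. Grouped by thinned Itga4 UMIs, gate cells had the most Ccl5 in the class with 2 or more, as given above.

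The same gate was applied to recipient spleens, so the same genes chose the cells there. Members near 0 in comparison cells pass the low-count filter only through the gate. Counts of the virtual memory list, here and at 1 week, therefore do not bear on its direction. Itga4, known to be low in virtual memory cells, is not among the 10 and is given below. At 3 weeks, in 559 gate cells, 438 of 6322 genes were higher (6.93%) and 398 lower (6.3%) than in comparison cells of the same library (7.26% and 5.81% with TMM factors), and all 10 virtual memory features were again higher, with a median of 4.02. Ly6c2 read 755, 1043, 824, 875 and 1122 CPM in the gate against 127 to 190 CPM (2.52), Bcl2 read 742, 678, 689, 663 and 691 CPM against 476, 423, 429, 366 and 381 CPM (0.73 ± 0.06), and Cxcr3 read 73.6 to 82.7 CPM against 2.43 to 10.1 CPM (4.09). None overlapped. The naive and 3-week comparisons share no library: of 6300 genes tested in both, 294 were higher in both, 68.7% of the naive list and 69.2% of the 3-week list, where 6.75% of the genes were called higher at 3 weeks. For lower genes the 258 shared were 58.5% and 65.0% of the lists, against 6.30%. The only gene called in opposite directions was Dusp2, named after its values were seen. The lists compared, here and at 1 week, rest on the same gate genes and the same filter on low counts. Gate cells were also deeper at 3 weeks, with a median of 5190 against 3736 UMIs. The overlaps are thus not independent of these choices, and they were not repeated with thinned cells.

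At 1 week, in 874 gate cells, 1357 of 7979 genes were higher (17%) and 305 lower (3.82%). The median log2 fold change of all genes was 0.151 with total UMIs as library size, and with TMM factors, which bring it near 0, the counts were 770 (9.65%) and 528 (6.62%). Virtual memory features were higher in 9 of 10, Bcl2 being the exception. Of 7429 genes tested in both, 322 were higher in the naive and the 1-week comparison, 69.8% of the naive list but 27.6% of the 1-week list (15.7% of genes called), and 159 were lower in both, 33.6% and 53.2% (4.02% called). Of the genes called in the naive spleen, 15 of the higher and 16 of the lower ones were called in the opposite direction at 1 week.

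Itga4 behaved differently at 1 week. It read 367, 462 and 423 CPM in the gate and 199, 219 and 275 CPM in comparison cells, above them without overlap (0.83 ± 0.08, n = 3 libraries, adjusted p = 3.42e-11, edgeR, and 0.67 with TMM factors). NK-defining markers summed to 79.6 to 96.2 CPM in this gate and 10.5 to 16.4 CPM in its comparison cells, and without cells holding an NK or innate-like T cell marker the Itga4 difference was 0.87 (adjusted p = 5.47e-16). At 3 weeks it read 259, 181, 188, 147 and 188 CPM against 206, 246, 235, 207 and 245 CPM (-0.21 ± 0.09, adjusted p = 0.0838), lower in 4 of 5 libraries. After thinning, 9.74% of 1-week gate cells and 4.16% of comparison cells held 2 or more Itga4 UMIs, and 6.80 and 3.35% did at 3 weeks.

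The difference between the gate's effect in recipient and in naive spleen was then tested itself, in a fit chosen after these values had been seen. This fit was not repeated with thinned cells. At 1 week it was called for 441 of 8794 genes in the upward direction (5.01%) and 134 in the downward one (1.52%), which became 128 (1.46%) and 202 (2.3%) with TMM factors (median of all genes 0.156 with total UMIs). Itga4 rose by 1.21 ± 0.11 more in the 1-week than in the naive gate (adjusted p = 7.38e-16, edgeR), Itgb7 by 0.61 ± 0.13 (adjusted p = 4.53e-04). Ly6c2 differed by -1.07 ± 0.10 (adjusted p = 1.10e-14), its comparison cells reading 182, 331 and 213 CPM at 1 week, and Cxcr3 by -1.17 ± 0.28 (adjusted p = 0.00342). Bcl2 differed by -0.65 ± 0.10 (adjusted p = 1.02e-06), with comparison cells at 238, 255 and 357 CPM and gate cells at 334, 315 and 301 CPM. Without the third 1-week library the calls on Bcl2 (-0.34, adjusted p = 0.0790) and Itgb7 (0.40, adjusted p = 0.142) were lost. At 3 weeks 4 of 7096 genes differed (0.0282% in each direction, and 0.0141% upward with TMM factors), Dusp2 and Tmsb4x upward and Ly6a and 1700062C10Rik downward, and Itga4 (0.19, adjusted p = 0.906), Ly6c2 (-0.17, adjusted p = 0.901) and Bcl2 (-0.01, adjusted p = 0.999) were not called.

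Gate cells were next compared between spleens directly, without a block, over libraries; these comparisons share the 5 naive libraries. Between 1 week and naive, 1197 of 6303 genes were higher (19%) and 1528 lower (24.2%), or 1390 (22.1%) and 1247 (19.8%) with TMM factors (median of all genes -0.100 with total UMIs). Median depth of gate cells was 3519.5 UMIs at 1 week and 5549 in naive spleen. Median mitochondrial shares were 5.83 and 4.42% and ribosomal shares 33.8 and 39.5%. Cell cycle genes were higher at 1 week, 11 of 11 tested. Top2a, the topoisomerase of dividing cells, read 144, 52.7 and 164 CPM against 1.5 to 10.6 CPM in naive gate cells (4.58 ± 0.33). Granzyme genes were higher too, Gzma at 398, 326 and 460 CPM against 1.34 to 78.6 CPM (4.10 ± 0.29) and Gzmb at 103, 85.3 and 203 CPM against 2.68 to 17.8 CPM (4.35 ± 0.32), and Gzmm was not called (0.10, adjusted p = 0.695). All 12 tested S100 and annexin genes were higher, S100a4 at 674, 918 and 1083 CPM (4.29 ± 0.22) and Lgals3, encoding galectin-3, at 381, 510 and 549 CPM against 1.34 to 13.5 CPM (6.65 ± 0.22). Of these genes only Gzmm overlapped between the groups.

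Of the 10 survival genes tested, 3 were higher in the 1-week gate (Bax, Bcl2a1b and Pim1) and Bcl2 was lower. Il7r read 322, 318 and 451 CPM against 650 to 880 CPM (-1.05 ± 0.11), and comparison cells moved alike, from 641 to 765 CPM down to 299, 354 and 548 CPM. Bcl2 fell by 0.51 ± 0.12 (adjusted p = 0.000985), Tcf7 read 308, 318 and 303 CPM, below all naive libraries (-0.39 ± 0.09, adjusted p = 0.00103, but -0.16 with adjusted p = 0.452 after thinning), and 9 of 11 naive and stem-like factors were lower, Id3 by -0.87 ± 0.16. Ly6c2 was lower in the fit (-0.28, adjusted p = 0.0147), but not with TMM factors (-0.20, adjusted p = 0.0919), without the third library (-0.18, adjusted p = 0.157), after thinning (-0.20, adjusted p = 0.180) or without cells holding an NK or innate-like T cell marker (-0.16, adjusted p = 0.165). Markers of other cells moved with these results: NK-defining markers summed to 79.6 to 96.2 CPM in 1-week gate cells, 19.9% of them held an NK or innate-like T cell marker, 4 of 5 B cell markers and 3 of 3 myeloid markers tested were higher. Without the marked cells the counts were 1073 and 1398; the part of B cell and myeloid RNA was not tested.

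Between 3 weeks and naive far fewer genes differed, 119 of 5673 higher (2.1%) and 62 lower (1.09%), or 2.22% and 1.02% with TMM factors. Of the NK lectin receptors, 6 of 9 tested were higher. Klra7 read 56.3, 44.0, 44.9, 73.5 and 97.9 CPM against 8.03, 10.5, 15.3, 15.3 and 19.5 CPM (2.15 ± 0.24, adjusted p = 2.41e-08), and Klrc2 read 115, 86.2, 82.6, 63.0 and 124 CPM against 22.7 to 37.5 CPM (1.74 ± 0.18). Klre1, a lectin receptor of NK cells, read 76.7, 72.7, 43.1, 71.4 and 38.8 CPM against 5.10 to 24.0 CPM (2.04 ± 0.25). None of the 3 overlapped between the groups. Klra6 and Klra1, of the Ly49 family like Klra7 and as uncertain in their assignment, were higher by 1.89 ± 0.31 and 3.80 ± 0.50, and Klrc1 by 1.14 ± 0.26 (adjusted p = 0.00449), not called without the second 3-week library (0.92, adjusted p = 0.0524).

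NK-defining and innate-like T cell markers were also higher in the 3-week gate than in the naive gate, and the source of these transcripts was not tested. NK-defining markers summed to 37.2 to 113 CPM and innate-like T cell markers to 53.9 to 64.3 CPM, and 24.9% of gate cells held a UMI of either. Without those cells Klrc2 (1.31) and Klre1 (1.41) were still called, Klrc1 was not (0.89, adjusted p = 0.160), and Klra1, Klra6 and Klra7 had too few UMIs to pass the filter. The NK-defining list itself holds Klra4 and Klra8 of the Ly49 family. Leaving out cells by it can therefore remove Ly49 transcripts by construction.

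Among transcription factors of the 3-week gate, Ikzf2 was higher, at 104, 105, 93.3, 118 and 112 CPM against 16.1 to 53.5 CPM (1.54 ± 0.18), and Id3 lower, at 40.7, 40.6, 52.1, 21.0 and 24.5 CPM against 75.0 to 135 CPM (-1.58 ± 0.18). Both separated fully. Bcl2 rose by 0.63 ± 0.10 (adjusted p = 1.76e-05), or 0.47 after thinning (adjusted p = 0.0501), while comparison cells were at 366 to 476 CPM against 236 to 296 CPM. The immediate early gene Junb read 513, 617, 486, 491 and 477 CPM against 198, 164, 261, 147 and 124 CPM (1.52 ± 0.12), and comparison cells shared the change at 501 to 626 against 158 to 258 CPM. Dusp1 did likewise, at 63.2 to 103 against 12 to 26.8 CPM in the gate (2.15 ± 0.20) and 60.7 to 99.5 against 18.1 to 26.3 CPM in comparison cells. Ly6c2 (0.06, adjusted p = 0.812) and Itga4 (0.19, adjusted p = 0.533) did not pass the test.

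**Figure D4:**
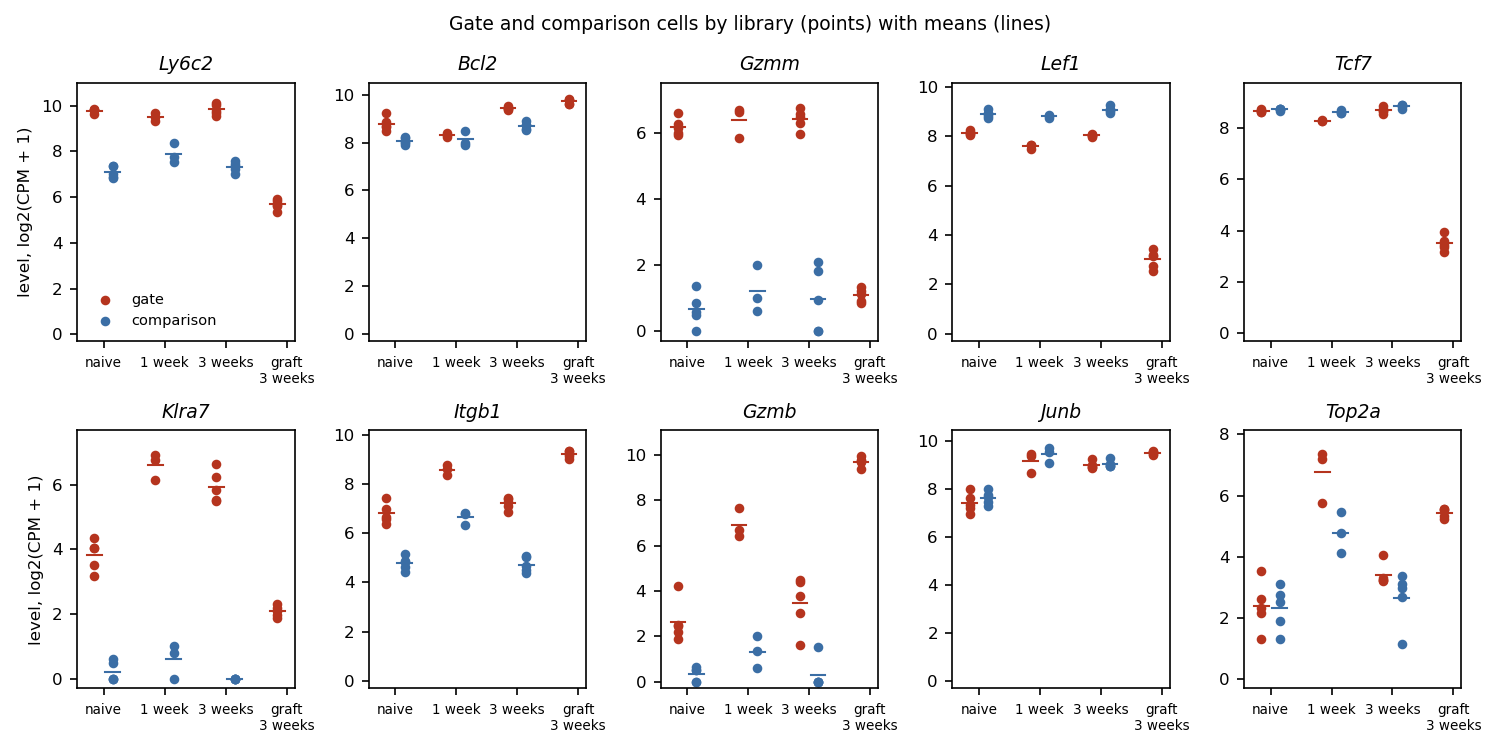
Level of 10 genes as log2(CPM + 1) in gate (red) and comparison cells (blue) of naive (n = 5), 1-week (n = 3) and 3-week spleens (n = 5), and in gate cells of accepted grafts at 3 weeks (n = 5), with 1 point per library and lines at the means. Among gate cells Ly6c2, Gzmm, Lef1 and Tcf7 are lowest in the graft, Top2a is highest at 1 week among spleens, and Junb is higher in both populations of recipients than in naive spleen.

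Graft cells that met the same gate at 3 weeks, 12568 cells, were set against the naive gate as well. They were 65.7 to 70.7% of graft CD8+ cells without excluding transcripts, against 13.5 to 16.5% in naive spleen. The gate thus takes most such graft cells and not a matching subset. Tissue, digestion and transplantation differ together between these groups and cannot be told apart. Of 9533 genes, 3977 were higher (41.7%) and 1254 lower (13.2%) than in the naive gate, or 2375 (24.9%) and 2151 (22.6%) with TMM factors (median of all genes 0.295 with total UMIs). Lef1 read 4.79 to 9.87 CPM against 265 to 309 CPM (-5.26), Tcf7 8.07 to 14.6 CPM against 394 to 426 CPM (-5.25 ± 0.11), and Ly6c2 40.2 to 60.1 CPM against 793 to 915 CPM (-4.12 ± 0.09). Pdcd1, encoding PD-1, read 414 to 661 CPM against 0 to 3.00 CPM (8.88), and Itgae 205 to 250 CPM against 2.55 to 9.41 CPM (5.23). None of these overlapped. Of the virtual memory features 4 were higher and 4 lower, with Gzmm at 0.818 to 1.53 CPM (-5.95), Bcl2 at 782 to 891 CPM (0.91) and Cxcr3 not called (0.33, adjusted p = 0.0545). NK-defining markers summed to 380 to 792 CPM in these gate cells. In the graft's 136 comparison cells they summed to 235 to 564 CPM, an overlapping range. Of the graft gate cells, 52.8% held an NK or innate-like T cell marker.

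The level of Ly6c2 in gate cells varied widely over the 9 CD8 matrices. The lowest, median and highest Ly6c2 level of gate cells was 793, 908 and 915 CPM in naive spleen, 642, 730 and 828 CPM in 1-week spleen and 755, 875 and 1122 CPM in 3-week spleen, ranges that overlapped. In accepted kidneys it was 213, 288 and 306 CPM at 1 week and 40.2, 49.1 and 60.1 CPM at 3 weeks. Under the 24-week labels the order was turned, with 31.4, 58.5 and 62.8 CPM in spleen and 932, 998 and 1169 CPM in kidney. Rejecting spleen, with 71 gate cells, read 826, 853 and 1120 CPM for Ly6c2, and the 2 libraries of rejecting kidney 81.8 and 308 CPM.

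The share of cells that met the gate was compared last, among CD8+ cells without excluding transcripts. Each cell was thinned to 1000 UMIs because depth sets how often a gate is met. The levels of the gate's own genes set it too. Il2rb in gate cells was 274 to 441 CPM in naive spleen, 407 to 609 at 1 week and 451 to 573 at 3 weeks. Ccl5 was 1864 to 3558, 5081 to 7562 and 4109 to 5873 CPM. Number of cells and level per cell were not told apart. In naive spleen the share was 2.98, 2.35, 3.43, 1.30 and 3.87% (2.79% ± 1.00, SD, n = 5), and unthinned 13.5 to 16.5%. In 1-week spleen it was 5.99, 7.91 and 7.30% (7.07% ± 0.977, SD, n = 3), above every naive library. The difference was 4.28 percentage points (two-sided exact permutation test, p = 0.0357, the smallest this design allows, and 0.0357 adjusted over 3 comparisons). Unthinned, the 1-week share ran from 14.1 to 30.7%, overlapping naive spleen (exact p = 0.143 by the same test). In 3-week spleen it was 6.98, 6.18, 7.03, 4.24 and 9.55% (6.80% ± 1.91, SD, n = 5), also above every naive library, by 4.01 percentage points (exact p = 0.00794, adjusted 0.0238). The libraries labelled 24-week spleen held 26.3% ± 1.55 (SD, n = 3), 23.5 points above naive (exact p = 0.0357, adjusted 0.0357), in cells whose Ly6c2 levels were unlike those of the other spleens. The libraries labelled 24-week kidney held 2.99, 3.09 and 3.64%, within the range of naive spleen, and their Ly6c2 levels, given above, exceeded every naive and 1-week spleen library. The labels were kept as given.

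These differences depended on the denominator. After thinning, CD8+ cells without excluding transcripts were 68.0 to 74.2% of the naive matrix but 26.8 to 30.1% of the 1-week and 28.9 to 34.3% of the 3-week matrix. As a share of all cells of the matrix, the differences from naive spleen were 0.0214 percentage points at 1 week (exact p = 1) and 0.115 points at 3 weeks (exact p = 0.762), with overlapping ranges.

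**Figure D5:**
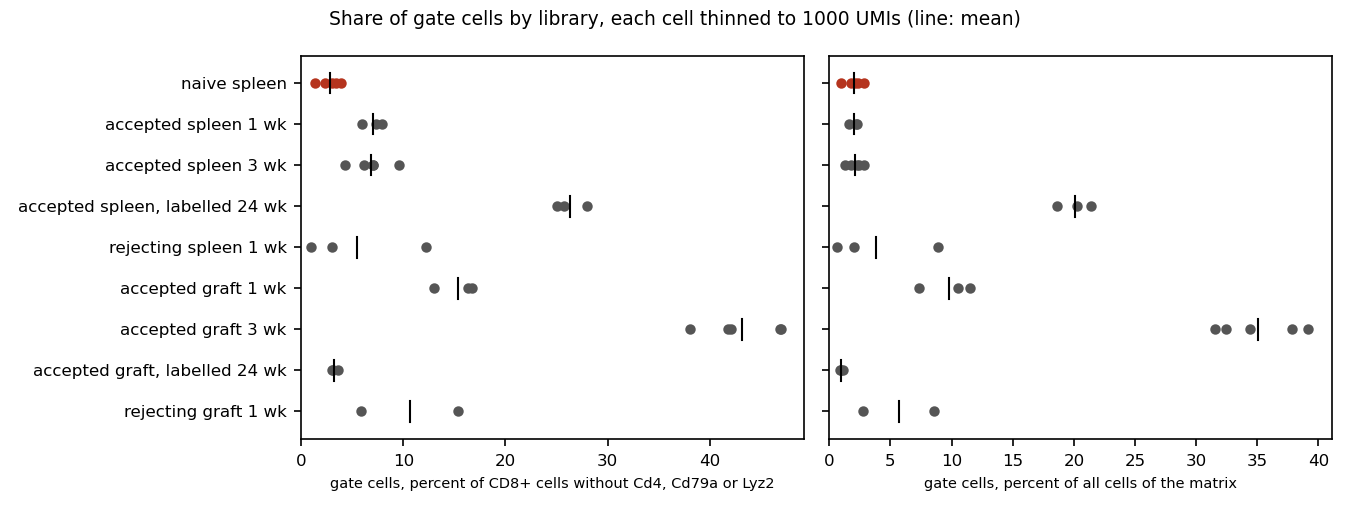
Share of gate cells in each CD8 matrix after thinning each cell to 1000 UMIs, as percent of CD8+ cells without Cd4, Cd79a or Lyz2 (left) and of all cells of the matrix (right), with 1 point per library and a line at the mean. On the left the 1-week and 3-week spleens lie above naive spleen, on the right they overlap it, and the spleen libraries labelled 24 weeks lie above naive spleen in both.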

How the data were processed

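The authors aligned the libraries with Cell Ranger to mm10 (per the labels' processing notes), kept cells by UMIs, genes and mitochondrial share, and deposited raw UMI counts per gene and cell, including CD8 matrices that hold their own selection of cells. From these deposited counts, cells were gated on raw UMIs and summed per library tag. Gate and comparison cells were tested with edgeR 4.0.16 (R 4.3.3, limma 3.58.1), quasi-likelihood, library as block, total UMIs as library size, and genes filtered for low counts by edgeR's default rule. The 9 gate genes were left out of counts. Some genes of the lists are not reported here and were left out of them. Gate cells of different groups were fitted without a block. Shares were compared by exact permutation (scipy 1.17.1) after thinning to 1000 UMIs, and doublets were called with scanpy 1.11.5. Members, lists and tests were chosen with earlier results of these data known. Genes named outside the 26 lists were 10 at each end of the log2 fold change among called genes with a mean of 20 CPM or more and one direction in every library, or no overlap between groups, leaving out mitochondrial, ribosomal protein, immunoglobulin and receptor V genes. Both populations come from 1 library, so tags pair them: deviations from the population means correlated within a library at 0.184 to 0.343 in naive spleen, 0.246 to 0.546 at 1 week and 0.0730 to 0.406 at 3 weeks. Alternatives were TMM factors, DESeq2 1.42.0, no low-count filter, no block, thinning, other gates, cells without doublets, and leaving out each library. For the difference of the gate effect, only TMM factors and leaving out each library were run. Fits of the difference of the gate effect, comparison cells without Cd44, and fits without cells holding an NK or innate-like T cell marker were added after seeing the data. Cells under 1000 UMIs, left out of thinned values, numbered 1 in naive, 313 in 1-week and 53 in 3-week spleen. Scripts were tested on simulated data.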

Additional observations from a re-analysis of the deposited data

Results flagged for a closer look

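Of 111 groups of 4 or more libraries examined, 6 held a library that stood apart from the rest of its group, where chance marks about 1 in 20. In naive spleen gate cells these were Ly6c2 in library 5 (793 CPM, the lowest), Klrk1 in library 5 (88.5 CPM, the highest), Zeb2 in library 2 (36.7 CPM) and Itgb2 in library 2 (159 CPM). In 3-week gate cells, Klra6 (60.9 CPM) and Junb (617 CPM) were highest in the second library. The calls on these genes held without the library named.

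The gate's effect differed between 1-week recipient spleen and naive spleen for 6 of the genes described at 1 week. The log2 difference of effects was 1.21 for Itga4, 0.61 for Itgb7, -1.07 for Ly6c2, -0.65 for Bcl2, -0.45 for Lef1 and -1.17 for Cxcr3 (edgeR, adjusted p between 7.38e-16 and 0.00342). Without the third 1-week library Itgb7 (0.40, adjusted p = 0.142) and Bcl2 (-0.34, adjusted p = 0.0790) were not called.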

How the results depend on the processing

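Thinning each cell to 1000 UMIs lowered most counts of called genes, given here as higher and lower: 114 and 77 in naive spleen, 482 and 139 at 1 week, 90 and 65 at 3 weeks, 411 and 416 between 1-week and naive gates, 25 and 10 between 3-week and naive gates, and 1785 and 561 for the graft. It holds fewer UMIs per gene by construction. DESeq2 called 287 and 150 in naive spleen, 280 and 173 at 1 week, 199 and 108 at 3 weeks, 772 lower at 1 week against naive, 30 lower at 3 weeks against naive, and 2321 and 2138 in the graft. Without the replicate block, 304 genes were lower in naive spleen, 196 at 1 week and 234 at 3 weeks. TMM factors gave 770 and 528 at 1 week, 2375 and 2151 in the graft, 128 and 202 for the difference of effects at 1 week and 1 gene higher for that at 3 weeks. Leaving out cells with an NK or innate-like T cell marker left 416 and 424 calls in naive spleen, without those on Il7r, Mcl1 and Zap70, and 40 lower between 3 weeks and naive.

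Leaving out each library in turn gave 390 to 456 higher and 349 to 412 lower in naive spleen, 856 to 1249 and 199 to 282 at 1 week (856 without the third library), 352 to 402 and 305 to 334 at 3 weeks, 995 to 1175 and 1139 to 1439 for 1 week against naive, 89 to 141 and 42 to 95 for 3 weeks against naive (95 without the first 3-week library), 3254 to 4073 and 993 to 1296 for the graft, 203 to 421 and 107 to 132 for the difference of effects at 1 week (203 without the third library), and 1 to 5 and 1 to 5 for that at 3 weeks. Share differences ranged from 3.86 to 4.81 points at 1 week (adjusted p from 0.0571 to 0.0952), 3.32 to 4.65 at 3 weeks and 22.6 to 24.1 for the 24-week label (0.0571 to 0.0952), where 3 libraries against 4, or 2 against 5, cannot reach the threshold. Unthinned, the differences were 6.35 at 1 week (adjusted p = 0.143) and 38.7 at 24 weeks (0.0536); over all cells they were 0.0214, 0.115 and 18.1 points (0.107 for the last).

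Of the single-gene values that could be tested after thinning, 73 kept their side of the threshold, 3 changed sign (Tgfbr2 to 0.14, Mcl1 to 0.012 and Zap70 to -0.12), and 18 lost their call. Of these, Klrd1 went from 0.37 to 0.43, Cd5 from 0.47 to 0.42, Itgb2 from 0.66 to 0.62, Itgb7 from -0.45 to -0.36, Bach2 from -0.76 to -0.54 and Itga4 from -0.40 to -0.03. The cause was not tested. Leaving out a library left 869 such values on their side of the threshold, and 18 lost their call. Gates on Ccl5 or Eomes alone, with doublets removed, or with comparison cells free of Cd44 changed no call among 79 genes in naive spleen.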
